A study of Mus musculus with 2 samples.

Results

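The genes described here encode 9 transcription factors known for directing myeloid lineages: Spi1, Cebpa, Cebpb, Maf, Irf4, Irf5, Klf4, Batf3 and Nfatc1. They were chosen by name, and all 9 symbols were found among the 27998 genes counted in both single-cell libraries. The libraries hold CD45+ (leukocyte) cells isolated with magnetic beads from TSA tumors, which grow from a mammary carcinoma line injected under the skin of BALB/c mice. One library came from untreated mice and the other from mice that drank water with 0.5% nicotinamide (NAM), a form of vitamin B3, over 10 days. The cells of 3 tumor-bearing mice were pooled for either library. With 1 library per group, NAM and the library itself as sources of a difference cannot be told apart, and no test between groups was possible.

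These factors bind DNA and set which genes a progenitor or a mature myeloid cell can use. Spi1 encodes PU.1, required for all myeloid lineages, and Cebpa and Cebpb encode leucine zipper proteins, the first tied to the monocyte and granulocyte commitment of progenitors and the second to inflammatory gene expression in monocytes and macrophages. Maf encodes c-Maf, a factor of tissue macrophages and of Il10 expression. Klf4 supports monocyte differentiation, Irf4, Irf5 and Batf3 are known for roles in dendritic cell subsets and macrophage responses, and Nfatc1 is the master factor of osteoclasts, the bone-resorbing cells that fuse from myeloid precursors.

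The untreated library held 2922 cells with a median of 9056 unique molecular identifiers (UMIs, which count captured RNA molecules rather than reads). The NAM library had 3276 cells with a median of 9128. Cells were placed in classes by the UMIs of marker genes, none of which is among the 9 factors. Macrophages (C1qa, C1qb and C1qc) made up 1993 untreated and 2208 NAM cells and included subsets positive for Vcam1 and Dnase1l3 (412 and 409), positive for the proliferation genes Birc5, Ube2c and Top2a (225 and 227) and negative for all subset markers (other macrophages, 1023 and 1196). The remaining myeloid classes were osteoclast-like cells (Ctsk and Acp5, 104 and 122), Ly6c2 monocytes (187 and 190), Cd209a dendritic cells (36 and 38), Xcr1 Clec9a dendritic cells (29 and 33) and mature dendritic cells (Ccr7 and Fscn1, 14 and 16). Lymphoid cells (259 and 299) served as a comparison for RNA that comes from other cells in the suspension. Of the osteoclast list that was not used for gating, Atp6v0d2 reached 1139 and 1170.2 CPM (the UMIs of a gene scaled to the total UMIs of the class) in osteoclast-like cells against 9.39 and 8.02 in macrophages, and the monocyte genes Ccr2 and Ly6c1, likewise not used for gating, reached 473 and 632 CPM and 2038 and 2212 CPM in Ly6c2 monocytes, against 138 and 135 CPM and 20.6 and 24.7 CPM in macrophages. A list of 10 dendritic cell genes summed to between 1606 and 2861 CPM in the 3 dendritic classes, against 468 and 591 in macrophages, but 1 gene made up much of each sum: H2-DMb2 71.3% and 76.8% in Cd209a cells, Cd24a 35.3% and H2-DMb2 38.9% in Xcr1 Clec9a cells, and Ccl22 51.03% and 65.01% in mature cells. In both libraries 9, 7 and 5 of the 10 genes were above macrophages in these classes, and Cadm1 in Cd209a cells, Clec10a and Itgax in Xcr1 Clec9a cells and Wdfy4 and Cadm1 in mature cells were below them. All 5 genes of the osteoclast list together gave 1542 and 1561 CPM in osteoclast-like cells against 18.2 and 18.3 in macrophages, with the calcitonin receptor gene Calcr at 0 in the untreated osteoclast-like cells and in macrophages. Hemoglobin RNA, a red blood cell product, was higher in the NAM library. In NAM Ly6c2 monocytes 1 cell held 5029 of 5070 and in NAM lymphoid cells 1 cell held 4820 of 4899 of these UMIs, whereas in NAM macrophages 3 cells had 10 or more of them and the richest held 44.1% of 6716. In osteoclast-like cells (25 and 55 UMIs), the Vcam1 Dnase1l3 subset (53 and 113) and proliferating macrophages (39 and 103) no cell held more than 6.

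Promoter sequences are shown for Cebpb, Batf3 and Klf4, because their levels differ between monocytes, dendritic cells and macrophage subsets in the results that follow. RefSeq promoter windows (250 bases before to 50 after the start site, build GRCm38.p6) were at hand for 6 of the 9 genes. They were searched on both strands for the letters of PU.1 (GAGGAA), C/EBP (TTGCNNAA), AP-1 (TGANTCA), CRE (TGACGTCA), GAS (TTCNNNGAA), the short CRE (TGACG, which also lies inside the CRE), TATAAA (the core of a TATA box) and the ISRE core. Capitals mark every match. The Cebpb window lies at chr2:167688665-167688964 (plus strand), the Batf3 window at chr1:191098164-191098463 (plus strand) and the Klf4 window at chr4:55532426-55532725 (minus strand), each written in the direction of transcription.
Cebpb: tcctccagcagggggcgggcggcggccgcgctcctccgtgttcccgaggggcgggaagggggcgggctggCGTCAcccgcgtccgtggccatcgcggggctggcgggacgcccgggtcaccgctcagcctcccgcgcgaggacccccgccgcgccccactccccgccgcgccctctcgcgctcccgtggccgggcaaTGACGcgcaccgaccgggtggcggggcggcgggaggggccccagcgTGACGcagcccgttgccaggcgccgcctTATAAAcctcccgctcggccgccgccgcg
Batf3: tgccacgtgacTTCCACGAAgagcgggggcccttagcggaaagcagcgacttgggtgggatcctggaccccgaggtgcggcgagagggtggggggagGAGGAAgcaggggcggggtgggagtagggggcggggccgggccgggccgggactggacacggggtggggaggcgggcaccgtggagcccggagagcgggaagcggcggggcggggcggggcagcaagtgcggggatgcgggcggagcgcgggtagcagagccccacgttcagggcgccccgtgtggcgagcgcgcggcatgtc
Klf4: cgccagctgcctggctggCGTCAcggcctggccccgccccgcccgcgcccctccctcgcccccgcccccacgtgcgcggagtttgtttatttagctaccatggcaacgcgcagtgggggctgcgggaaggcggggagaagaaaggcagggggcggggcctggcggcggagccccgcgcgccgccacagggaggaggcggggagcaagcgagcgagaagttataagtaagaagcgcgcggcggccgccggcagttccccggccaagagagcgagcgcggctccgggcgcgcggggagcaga
The Cebpb window held 3 short CRE matches and 1 TATA match, the Batf3 window 1 PU.1 and 1 GAS match, and the Klf4 window 1 short CRE match. Among 32851 promoter windows of the same length, 20.8% held a short CRE match, 28.3% a PU.1 match, 8.30% a GAS match and 13.6% a TATA match. All 3 windows were rich in G and C (80.7%, 75.7% and 74.3%, against a median of 52.7% over all windows). A match describes letters in the window and is not evidence of binding.

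The levels of the 9 genes separated the myeloid classes in a similar way in both libraries, as the plot of CPM by class shows. A member was called higher or lower in a class only where its level was at least 2-fold different from that of macrophages in both libraries (for macrophage subsets, from the remaining macrophages). Intervals printed in brackets are exact 95% intervals that cover counting error only, not variation between mice or libraries, and cells of 1 library are not replicates. Levels are compared within a gene only, never between genes.

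**Figure D1:**
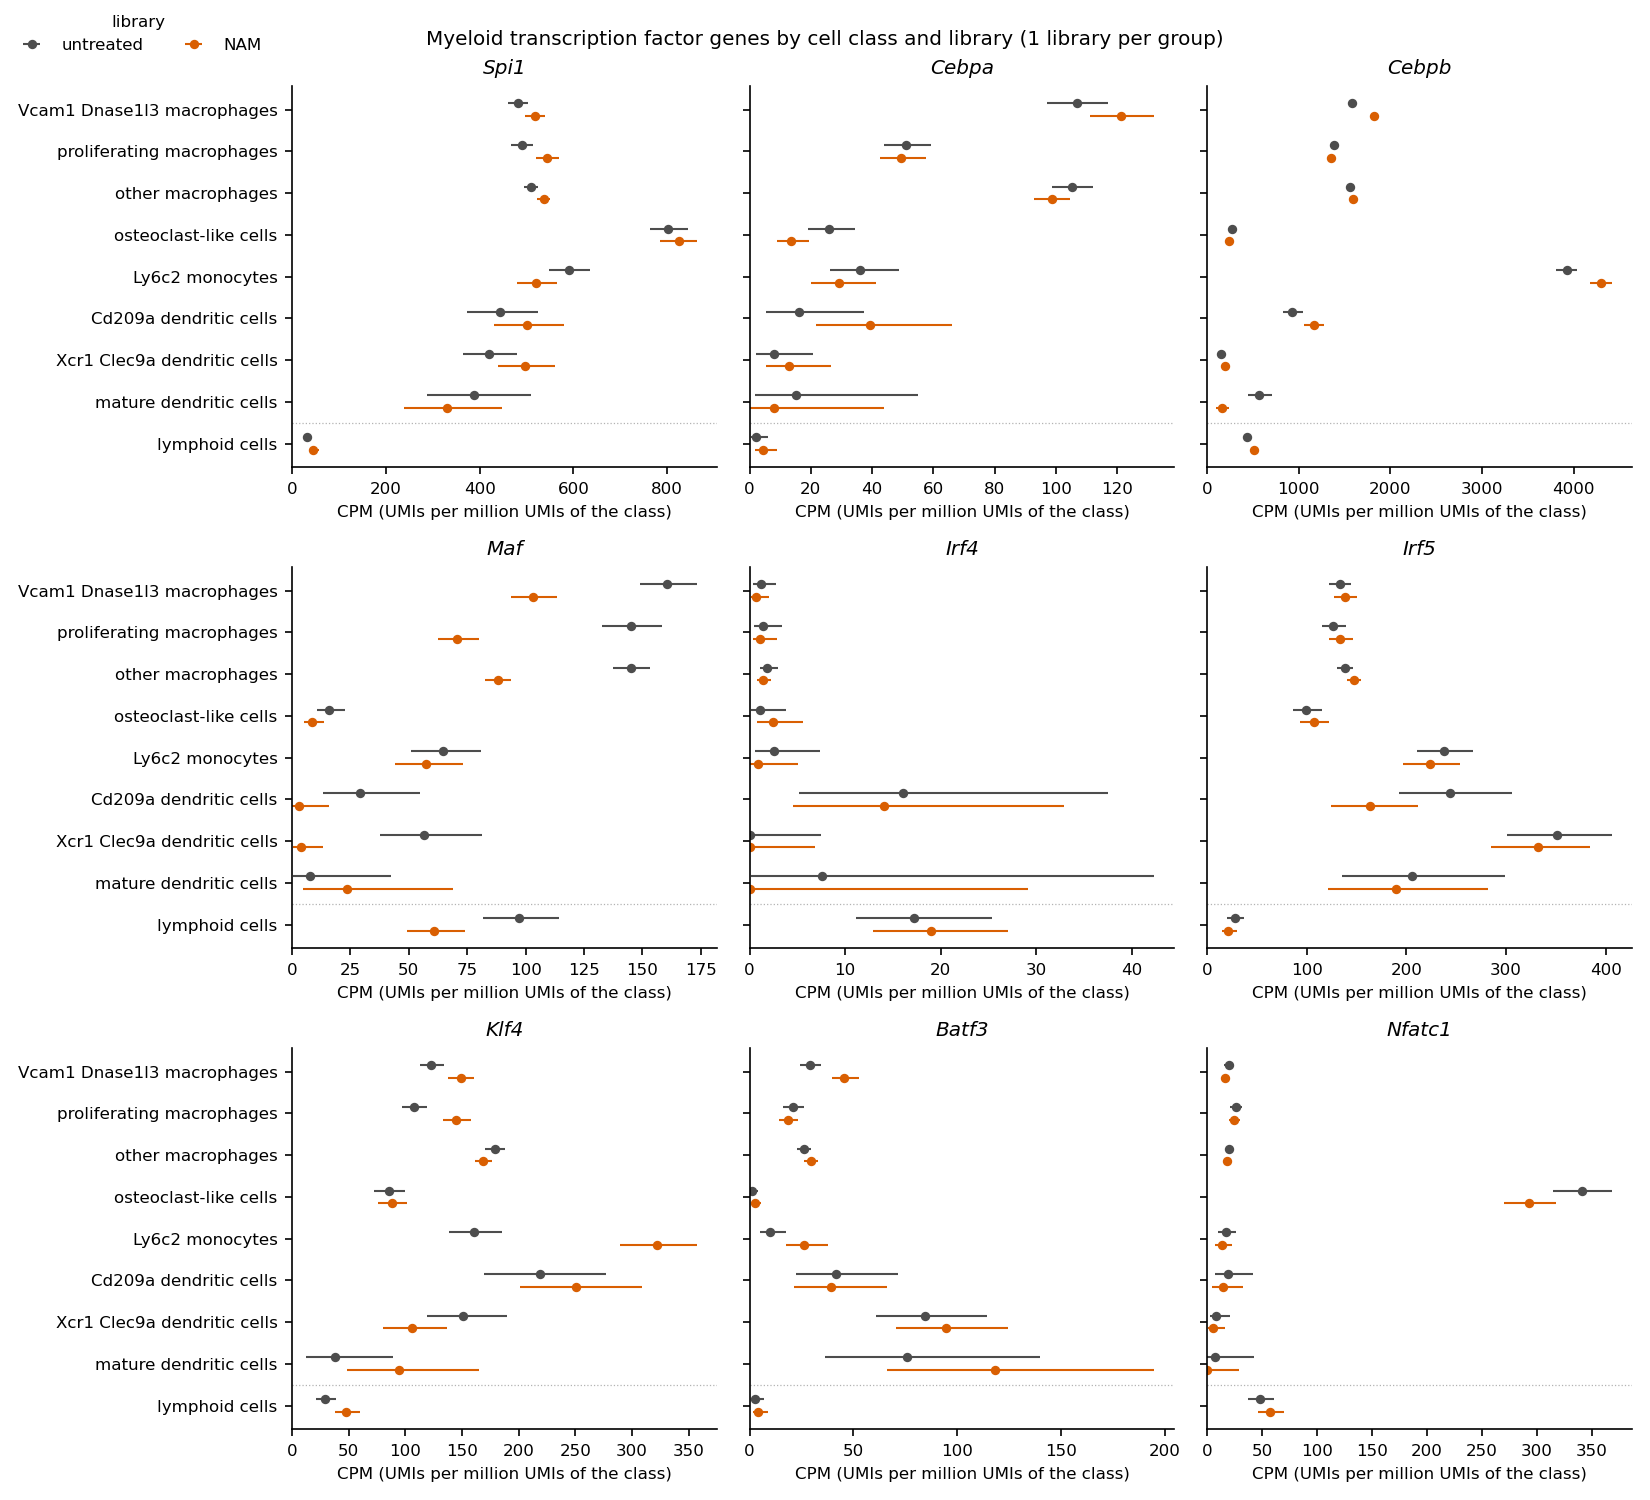
Level of each gene in CPM (linear axis, points) in 8 myeloid classes and lymphoid cells, by library, with exact 95% Poisson intervals for counting error (bars). Nfatc1 stands out in osteoclast-like cells (340.5 and 293 CPM), Cebpb in Ly6c2 monocytes (3921 and 4294 CPM) and Irf5 in Xcr1 Clec9a dendritic cells (351 and 332 CPM).

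In osteoclast-like cells 1 member was called higher (8.71% of all genes tested were) and 5 were called lower (10.9% of all genes tested were) than in macrophages. The class was gated on the osteoclast genes Ctsk and Acp5, so a high level of another osteoclast gene in it is not an independent result. Nfatc1 was at 340.5 CPM [315, 368] in the untreated and 293 CPM [270, 317] in the NAM library, against 21.2 and 17.8 CPM in macrophages, a log2 difference of 4.00 and 4.04. Both libraries placed it above the other myeloid classes without overlap of intervals. These cells held 44.9% and 45.6% of all Nfatc1 UMIs of their library, against 6.48% and 6.46% of the UMIs of all genes (3.56% and 3.72% of cells).

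Nfatc1 was also detected outside this class. Cells that met no gate were at 89.8 and 65.1 CPM and lymphoid cells, where Nfatc1 serves antigen receptor signaling, at 48.1 and 57.0 CPM, both above macrophages. When each cell was thinned to 3000 UMIs, a Nfatc1 UMI was found in 65.4% [55.4, 74.4] and 60.7% [51.4, 69.4] of osteoclast-like cells, in 13.9% and 13.4% of lymphoid cells and in 6.12% and 5.03% of macrophages. Median depth before thinning was 16973 and 16442 UMIs in osteoclast-like, 9827 and 9816 in macrophage and 4671 and 4439 in lymphoid cells. Between macrophage subsets, Nfatc1 ranged from 16.4 to 26.2 CPM, and no neighbors in the order of their levels were apart.

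Spi1 was highest in osteoclast-like cells as well, at 803 CPM [763, 844] and 824 CPM [786, 864]. That is below 2-fold over macrophages (485 and 515 CPM), but its intervals lay above those of the other myeloid classes. Ly6c2 monocytes had the next highest mean (590.3 and 521 CPM). In the NAM library, however, proliferating (544 CPM) and other macrophages (536 CPM) lay above them. The macrophage subsets and dendritic classes ranged from 331 to 544 CPM with most intervals overlapping. Lymphoid cells were at 32.3 and 45.4 CPM, 6.66% and 8.81% of the macrophage level.

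The 5 members called lower in osteoclast-like cells were Cebpa, Cebpb, Maf, Klf4 and Batf3. Cebpb was at 276 and 237 CPM against 1582 and 1659 CPM in macrophages (log2 difference -2.52 and -2.81). Maf was at 15.9 and 8.68 CPM against 149.7 and 91.0 CPM, and Batf3 rested on 2 and 5 UMIs (1.06 and 2.41 CPM against 24.3 and 28.7). Cebpa was at 25.9 and 13.5 CPM against 96.4 and 92.6 CPM, while Klf4, at 85.3 and 87.8 CPM, was just past the threshold (log2 difference -1.03 and -1.09). The Klf4 call was lost with classes by marker score (mean log2 difference -0.16), with thinned cells (-0.99) and without ribosomal and mitochondrial genes in the total (-0.92), and the Cebpb call with classes by marker score (-1.06). For scale, the macrophage gene Lyz2 differed by -4.14 and -4.57 on the log2 scale in these cells. Irf5, which was not called, was at 99.6 and 107 CPM against 133 and 138 CPM.

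Most genes of the osteoclast list were higher in these cells, which were themselves gated on osteoclast genes. Of 12 osteoclast factors and targets, 11 had enough UMIs, and 9 of these were higher in osteoclast-like cells and 0 lower. They included Mitf, a factor that acts with PU.1 in osteoclasts (95.3 and 106 CPM against 12.7 and 13.7), Prdm1, a repressor of genes that oppose osteoclast formation (132 and 116 against 29.1 and 36.8), and the fusion gene Ocstamp (286 and 289 against 6.80 and 8.80). Among the 3 other NFAT genes tested, Nfatc2 was lower (4.77 and 0.964 CPM against 16.5 and 13.8) and none was higher. Irf8, a brake on osteoclast formation, was at 35.0 and 27.0 CPM against 250.4 and 277. Of 8 matched myeloid targets of PU.1 and C/EBP, 5 were lower here, Cd14 among them (90.02 and 75.2 CPM against 1396 and 1963), whereas Csf1r, the receptor for the growth factor CSF1, was at 704 and 688 CPM against 549.8 and 474.

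Of the 9 members, only 2 C/EBP genes were called in Ly6c2 monocytes against macrophages, 1 higher (Cebpb, background 3.76%) and 1 lower (Cebpa, background 6.3%). Cebpb stood at 3921 CPM [3809, 4035] and 4294 CPM [4172, 4418], a log2 difference of 1.31 and 1.37, above the other myeloid classes without overlap, a call that was lost with classes by marker score (mean log2 difference 0.86). Cebpa was at 36.1 CPM [26.1, 48.6] and 29.1 CPM [19.9, 41.1], a log2 difference of -1.42 and -1.67. The 2 genes thus lay in opposite directions in the same cells. Among the 4 matched relatives, Cebpe, a factor of granulocyte precursors, was also higher in monocytes (11.8 and 19.1 CPM against 1.92 and 2.60). Irf7, an interferon-induced factor, was higher as well (1419.9 and 1480.1 CPM against 399 and 477).

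Cebpb RNA was not confined to myeloid classes. In lymphoid cells it was at 438 and 508 CPM, 27.7% and 30.6% of the macrophage level, and 60.6% and 62.9% of thinned lymphoid cells had a UMI, compared with 90.4% and 92.3% of macrophages. For 6 macrophage genes taken as a reference, lymphoid levels ran from 3.79% and 3.39% (Lyz2) to 22.1% and 26.7% (Cst3) of macrophage levels. The shares for Cebpb and for Maf (64.8% and 66.7%) were above all 6. Those for Klf4 (16.6% and 25.6%) and Irf5 (20.7% and 15.5%) lay below Cst3 but above the other reference genes, of which Ctsb was highest (10.8% and 12.2%). They are not read as expression, a choice that rests on Cst3 alone. Cebpa was at 2.14% and 4.63%.

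Macrophages held 89.7% and 90.01% of the Cebpa UMIs of these CD45+ cells, against 71.6% and 71.9% of the UMIs of all genes. Proliferating macrophages had 51.2 CPM [43.9, 59.3] and 49.6 CPM [42.5, 57.5], and the Vcam1 Dnase1l3 and other macrophages between 98.6 and 121 CPM. This was the only member called in these subsets against the remaining macrophages (log2 difference -1.04 and -1.02), where 1.14% of all genes tested were lower and 5.43% higher in proliferating macrophages. It was lost with gates lowered by 1 UMI, with classes by marker score (mean log2 difference -0.71) and with thinned cells. No member was called in the Vcam1 Dnase1l3 (background 0.362% higher and 2.69% lower) or other subset (0.0836% and 2.26%). In the 3 dendritic classes Cebpa rested on 1 to 14 UMIs per library.

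The plot of UMI shares shows how differently the 9 genes were spread over the classes. Macrophages held 71.3% and 72.1% of Spi1 UMIs, close to their share of all UMIs, and 87.7% and 86.8% of Maf UMIs. For Batf3 the share was 82.2% and 79.4%, with a further 6.81% and 6.12% in Xcr1 Clec9a dendritic cells.

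**Figure D2:**
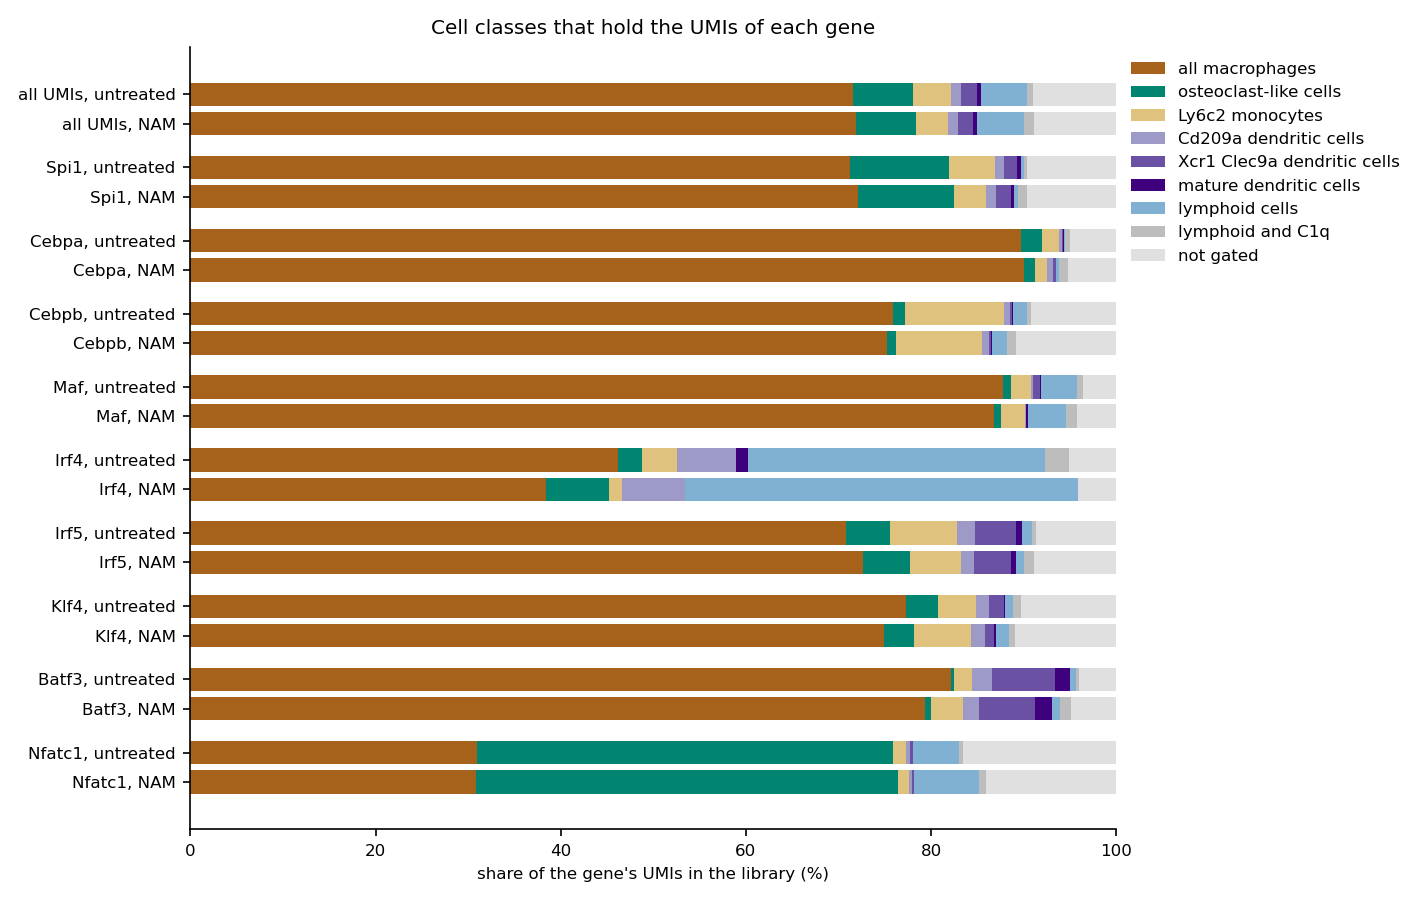
Share of each gene's UMIs (horizontal axis, percent) held by each cell class, by library, with the share of all UMIs on top. Osteoclast-like cells held 44.9% and 45.6% of Nfatc1 UMIs, and lymphoid cells 32.1% and 42.5% of Irf4 UMIs.

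Among the dendritic classes, members called higher than in macrophages were Batf3, Irf5 and Irf4. In Xcr1 Clec9a dendritic cells, the cross-presenting subset that needs Batf3 for its development, 2 members were higher (3.92% of all genes tested were) and 4 lower (8.1% were) than in macrophages. Irf5 had its highest mean in this class, at 351 CPM [300.4, 407] and 332 CPM [285, 384] against 133 and 138 CPM. Batf3 was at 84.6 CPM [61.0, 114] and 94.5 CPM [70.4, 124] against 24.3 and 28.7 CPM. The 4 lower members were Cebpa, Cebpb, Maf and Nfatc1, of which Cebpb had 149 and 198 CPM against 1582 and 1659. With classes by marker score (126 and 205 cells) all 6 calls were lost, with mean log2 differences of 0.61 for Irf5 and 0.86 for Batf3. The Irf5 and Batf3 calls were also lost without the 5 cells richest in the gene, the Irf5 call with thinned cells and the Nfatc1 call with gates lowered by 1 UMI. Irf8, the partner of Batf3 in this lineage and among the 3 genes most like it across classes (correlation 0.88), was at 1664 and 1805 CPM against 250.4 and 277, and Zbtb46, a dendritic cell factor, at 24.2 and 31.5 CPM against 0.719 and 0.390.

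Mature dendritic cells had the highest mean Batf3 level, 76.0 CPM [36.4, 139.7] and 118 CPM [66.2, 195], which overlapped that of Xcr1 Clec9a dendritic cells. With only 14 and 16 cells it rested on 10 and 15 UMIs, and without the 5 cells richest in Batf3 in each library its mean log2 difference from macrophages changed from 1.84 to -0.92. In this class 1 member was higher (background 4.68%) and 3 were lower (Cebpa, Cebpb and Maf, background 4.04%), and all 4 calls were lost with classes by marker score, that of Batf3 with thinned cells too. Of 8 dendritic cell factors tested, 4 were higher here, namely Irf8, Id2, Nfil3 and Relb, and 2 were lower. Relb, an NF-kB subunit of mature dendritic cells, was at 547 and 426 CPM against 56.3 and 51.1.

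Irf4 was sparse throughout, with 36 and 28 UMIs in macrophages. In Cd209a dendritic cells it was at 16.1 CPM [5.21, 37.5] and 14.1 CPM [4.58, 32.9], 5 UMIs in each library, against 1.73 and 1.21 CPM in macrophages. This was the 1 member called higher there (background 3.43%), with Cebpa and Maf called lower (background 3.81%). No Irf4 UMI was found in Xcr1 Clec9a dendritic cells, where counting error allows up to 7.43 and 6.84 CPM, so a difference from macrophages was not detectable at this depth. Lymphoid cells, in which Irf4 acts in activated T and B cells, were at 17.2 and 19.0 CPM, within the intervals of Cd209a dendritic cells. The thinned share of cells with an Irf4 UMI was 11.1% and 7.89% in Cd209a dendritic cells, with intervals that overlapped those of lymphoid cells (5.41% [2.99, 8.90] and 5.69% [3.35, 8.95]).

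Klf4 varied among macrophage subsets, while the intervals of Batf3, taken over both libraries, overlapped between the subsets described here. Klf4 was at 123 and 149 CPM in the Vcam1 Dnase1l3 subset, at 108 CPM [97.2, 119] and 145 CPM [133, 158] in proliferating macrophages and at 179 and 169 CPM in other macrophages. Against the remaining macrophages the proliferating subset differed by -0.80 and -0.42 on the log2 scale, short of the 2-fold rule. Batf3 was at 29.0 and 45.7 CPM in the Vcam1 Dnase1l3 subset, at 20.7 and 18.4 CPM in proliferating and at 26.2 and 29.5 CPM in other macrophages. Irf5 ranged from 127 to 147 CPM in these subsets.

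Between the libraries, Maf was the member that stood apart in macrophages. A difference was called where a gene had 50 or more UMIs in the class, its CPM differed by more than 1.5-fold and the interval of the log2 ratio (NAM over untreated) left out 0. By this rule 1 of 9 members, Maf, was lower in the NAM library and 0 were higher, against 4.61% of 10769 genes lower and 1.4% higher. With 1 library per group no p-value exists for these counts. The median log2 ratio of the 9 members was 0.05, and that of all genes tested was -0.03.

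Maf was at 149.7 CPM [144, 155] in untreated and 91.0 CPM [87.2, 95.01] in NAM macrophages, from 3124 and 2100 UMIs, a log2 ratio of -0.72 [-0.80, -0.64]. The thinned share of macrophages with a Maf UMI was 33.1% [31.0, 35.2] and 23.7% [22.0, 25.6]. The ratio was -1.04 [-1.26, -0.81] in proliferating macrophages (145 and 70.8 CPM), -0.64 [-0.81, -0.46] in the Vcam1 Dnase1l3 subset (161 and 103 CPM) and -0.72 [-0.84, -0.60] in other macrophages (145 and 88.0 CPM), each called lower. The background of genes lower in these classes was 3.83% in the proliferating, 4.92% in the Vcam1 Dnase1l3 and 4.9% in the other subset. For genes higher in the NAM library it was 1.6%, 1.76% and 1.46% in the same order. In the Vcam1 Dnase1l3 subset the call was lost with gates raised by 1 UMI, and with thinned cells (-0.53).

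The lower Maf count was not limited to macrophages. Lymphoid cells went from 97.0 to 60.7 CPM, a log2 ratio of -0.68 [-1.06, -0.30], with a thinned share of 20.5% and 10.7% of cells, where 5.64% of all genes tested were lower and 3.34% higher. The make-up of this class differed between the libraries as well: the T cell genes Cd3e and Cd8a were at 649 and 904 CPM and at 310.2 and 491 CPM, and the NK cell genes Ncr1 and Gzma at 287 and 178 CPM and at 923 and 674 CPM. The T cell list, with 2 of its 4 genes found, summed to 361 and 526 CPM and the NK list of 3 genes to 1283 and 1040.4 CPM. Cd4 (50.9 and 34.9 CPM) and the NK gene Klrk1 (309 and 334 CPM) lay the other way from their lists, and the part of these genes in the result was not tested. Osteoclast-like cells gave -0.87 [-1.80, 0.02] from 30 and 18 UMIs, and Xcr1 Clec9a dendritic cells held 28 and 2 UMIs (56.4 and 3.71 CPM, ratio -3.93 [-7.04, -1.94]), both below the 50 UMIs needed for a call. Of the 28 UMIs, 5 remained without the cells that met more than 1 exclusive gate. In Ly6c2 monocytes Maf was not called, at 64.7 and 57.3 CPM (-0.17 [-0.68, 0.33]). This interval takes in the ratio of the Vcam1 Dnase1l3 subset (-0.64), so a different course in monocytes is not shown.

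**Figure D3:**
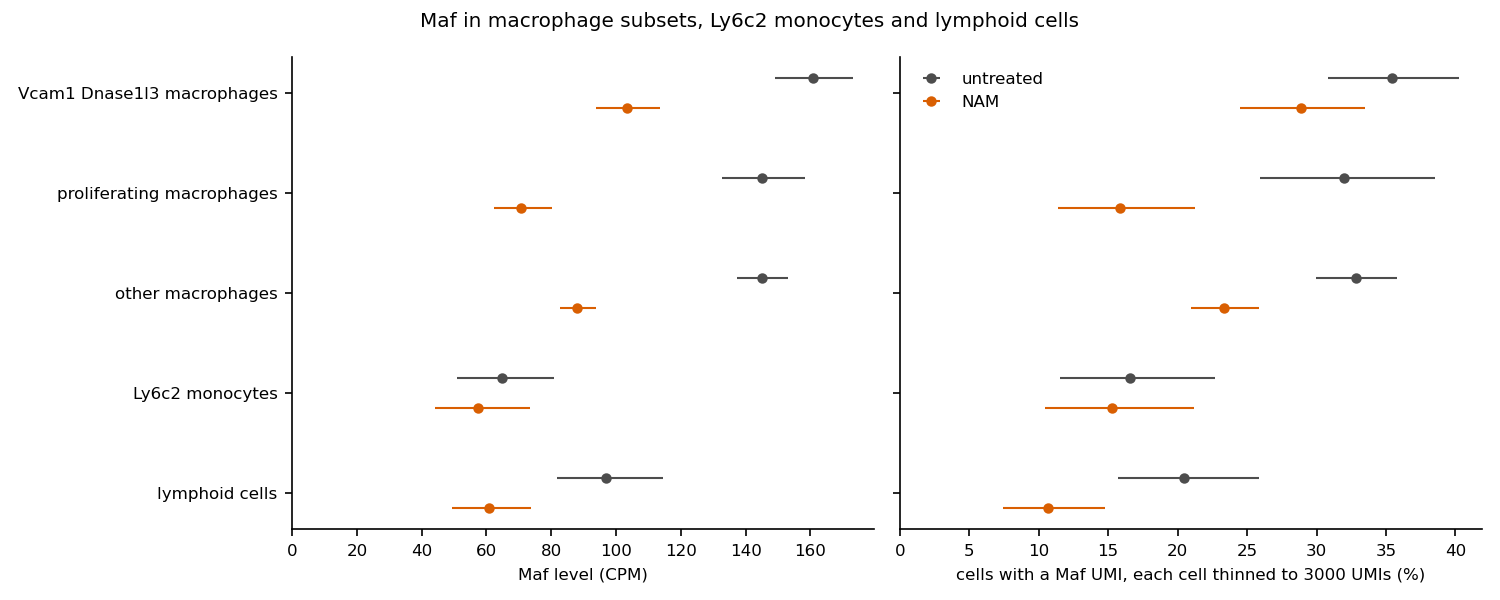
Maf level in CPM (left) and share of cells with a Maf UMI after each cell was thinned to 3000 UMIs (right, percent), by class and library, with exact 95% counting intervals (bars). In the 3 macrophage subsets and in lymphoid cells the NAM library lies below the untreated library, with CPM between 60.7 and 103 against 97.0 to 161, while Ly6c2 monocytes overlap (64.7 and 57.3 CPM).

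The 8 other members stayed within 1.5-fold in macrophages as a whole. Spi1 went from 485 to 515 CPM (log2 ratio 0.09 [0.05, 0.12]), Cebpb from 1582 to 1659 CPM (0.07 [0.05, 0.09]) and Klf4 from 174 to 187 CPM (0.10 [0.03, 0.16]). Batf3 was at 24.3 and 28.7 CPM in macrophages as a whole, a ratio of 0.24 [0.07, 0.41], below the size needed for a call. It was called in the Vcam1 Dnase1l3 subset, from 29.0 CPM [24.1, 34.6] to 45.7 CPM [39.5, 52.6] (0.66 [0.32, 0.99], background of genes higher 1.76%), a call that was lost with gates lowered by 1 UMI or with cells classed by their highest marker score (0.36). Cebpa and Irf5 had intervals that held 0 in macrophages, as did Irf4.

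Of 49 related or lineage factors from 9 lists that could be tested in macrophages, 3 (6.12%) were higher and 4 (8.16%) lower in the NAM library, against 1.4% and 4.61% of all genes tested. By family these were 1 of 8 ETS, 1 of 6 IRF, 1 of 7 KLF and 1 of 2 BATF factors, and 0 of 4 C/EBP, 0 of 4 Maf and 0 of 3 NFAT factors. Irf1, an interferon-induced relative of Irf5, went from 75.8 to 133 CPM (0.81 [0.72, 0.90]), and Batf2, a relative of Batf3, from 21.1 to 34.9 CPM (0.72 [0.55, 0.89]). Nfil3, which acts in dendritic cell development, was higher in the NAM library at 0.66. Etv3, an ETS repressor related to Spi1, was lower (50.03 and 29.8 CPM, -0.75), and so were Klf9 (-0.92), Bcl6 (-0.65) and Bhlhe41 (-0.67). Of the 8 matched PU.1 and C/EBP targets 0 were called in macrophages, with a median log2 ratio of 0.03.

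**Figure D4:**
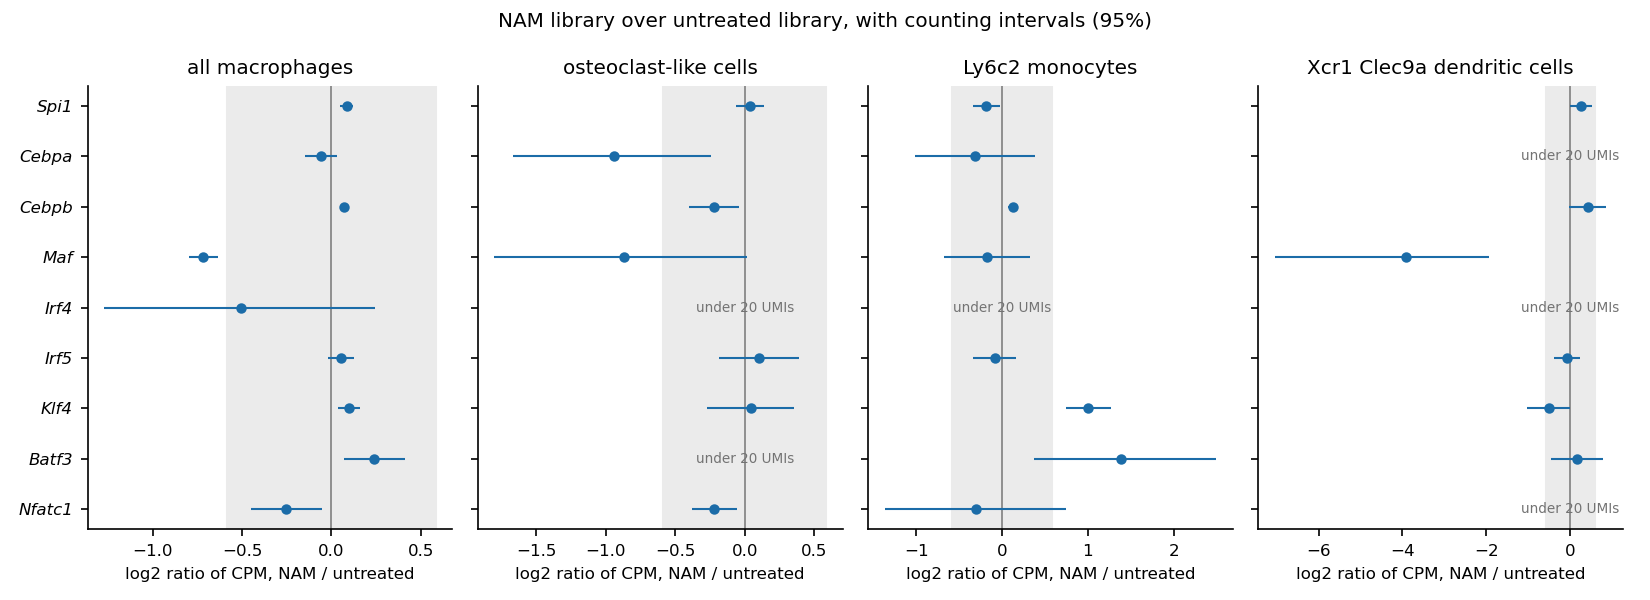
Log2 ratio of CPM, NAM library over untreated library (points), with exact 95% counting intervals (bars) for each gene in 4 classes; the gray band marks ratios within 1.5-fold, and each panel has its own axis. Maf lies left of the band in macrophages (-0.72) and Klf4 right of it in Ly6c2 monocytes (1.01).

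In Ly6c2 monocytes, Klf4 was the 1 member called higher in the NAM library (background 3.75%) and 0 were called lower (background 7.12%). It went from 160.4 CPM [138, 185] to 322 CPM [289.5, 358], from 191 and 354 UMIs, a log2 ratio of 1.01 [0.75, 1.27]. With classes by marker score, which took 453 and 479 cells as monocytes, the ratio was 0.50 and not called. A Klf4 UMI was found in 29.9% [23.5, 37.1] and 53.2% [45.8, 60.4] of thinned monocytes, against 5.41% and 12.0% of lymphoid cells, and monocytes with 3 or more thinned Klf4 UMIs made up 3.74% and 10.0%. Klf4 was also called higher in the lymphoid cells of the NAM library, at 28.9 and 47.8 CPM (ratio 0.73 [0.17, 1.30], background 3.34%). Median depth was 5625 and 5149 UMIs and the median mitochondrial share 1.59% and 1.80% in the monocytes.

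Klf2, a KLF gene known from quiescent T cells and monocytes, had a similar ratio in monocytes (147 and 302 CPM, 1.04 [0.77, 1.31]), and it was the only 1 of the 6 KLF relatives tested that was called there. Batf3 was at 10.1 and 26.4 CPM (12 and 29 UMIs, 1.39 [0.37, 2.49]), below the count needed for a call. Spi1 was slightly lower, from 590.3 to 521 CPM (-0.18 [-0.34, -0.02]), and Cebpb slightly higher (0.13 [0.07, 0.19]). Of the PU.1 and C/EBP targets, Tlr4, the endotoxin receptor, and Fcgr3, an Fc gamma receptor, were higher in NAM monocytes (0.85 and 0.62), the only 2 of 8 called. The median ratio of the members was -0.13, against -0.01 for all genes tested.

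Osteoclast-like cells had 1 of 9 members called lower in the NAM library (background 4.64%) and 0 higher (background 1.58%). It was Cebpa, from 49 to 28 UMIs (25.9 and 13.5 CPM, -0.94 [-1.67, -0.24]), with -0.30 in classes by marker score. Nfatc1 was 0.22 lower on the log2 scale in the NAM library, ratio -0.22 [-0.38, -0.06], and Cebpb likewise at -0.22 [-0.40, -0.04], both within 1.5-fold. Spi1 was 803 and 824 CPM (0.04 [-0.06, 0.14]). Of 11 osteoclast factors and targets tested, 0 were called in either direction.

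In dendritic cells, 1 member was called between libraries in the mature class and 0 in the other classes. Cebpb in mature dendritic cells had 74 and 20 UMIs in 14 and 16 cells, 562 CPM [441, 706] and 158 CPM [96.3, 243], a ratio of -1.83 [-2.63, -1.11], where 7.54% of all genes tested were lower and 8.86% higher. The call was lost with classes by marker score (-0.13) and with thinned cells (-3.36, under the 50 UMIs needed). Most of these UMIs lay in a few cells that also met another exclusive gate: without them, 8 and 2 UMIs were left in 12 and 14 cells, too few for a ratio, and the mean log2 difference of Cebpb from macrophages went from -2.44 to -5.33. Of the PU.1 and C/EBP targets, 4 of 4 that could be tested in mature dendritic cells were higher in the NAM library (Cd14, Lyz2, Fcgr3 and Cd68, median log2 ratio 1.32, where all genes tested had 0.05). Without the cells of another gate, chosen after seeing the data, none of the 4 was higher: Lyz2, with 75 and 38 UMIs left, was called lower (-0.69 [-1.29, -0.11]), and the other 3 had fewer than 50 UMIs. The thinned share of mature dendritic cells with a Cebpb UMI was 28.6% [8.39, 58.1] and 12.5% [1.55, 38.3]. The 6 macrophage markers, all detected in either library, summed to 1959.9 and 3649 CPM in mature dendritic cells, a rise that lay mostly in Apoe (1671 and 3374 CPM), while Csf1r (98.8 and 55.2 CPM) and Adgre1 (91.2 and 63.1 CPM) were lower in the NAM library; their part in the result was not tested. The background was 3.77% higher and 9.15% lower in Cd209a, and 8.6% higher and 7.51% lower in Xcr1 Clec9a dendritic cells. In Cd209a dendritic cells Irf5 was at 244 and 163 CPM (-0.58 [-1.10, -0.07]), just inside 1.5-fold, and in Xcr1 Clec9a dendritic cells Batf3 was at 84.6 and 94.5 CPM (0.16 [-0.46, 0.78]).

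Across 20 sums of a class and library, which include macrophage subsets not described here, the members followed different partners. Likeness was measured as the Pearson correlation of log2(CPM + 10) over those 20 points, among 8969 genes, and is a description only, since the points share their library and the classes differ in depth. Nfatc1 was most like Chchd10 (0.97) and Cox8a (0.97), genes of the mitochondrial respiratory machinery. Cebpa was most like Fam213b (0.96) and Cd93 (0.95), followed by the lipid carrier gene Apoe (0.95). Maf was most like Abcc3 (0.93), a transporter gene, and Ctsb (0.93), which encodes a lysosomal protease, and Cebpb like Zeb2os (0.96) and Tgm2 (0.96). Irf5 was most like Phf11a (0.97), Spi1 like Dgka (0.91), Batf3 like Tmsb4x (0.93), Irf4 like Slc44a2 (0.87) and Klf4 like H2afj (0.85). Between members, Spi1 and Nfatc1 were most alike (0.87) and Batf3 and Nfatc1 most opposed (-0.82).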

How the data were processed

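The authors prepared 10x Genomics Single Cell 3′ v2 libraries, aligned reads to mm10 with Cell Ranger 2.1.0 and deposited raw UMI counts per gene and cell; the annotation version is not given in the sources used here. All 6198 cells had passed the filter of the study (1000 genes, 3000 UMIs, 10% mitochondrial). The 9 members, the gene lists and the gates were chosen with earlier results of these data known. Named genes were the members, the 3 genes most like each, and genes of the lists past the thresholds or at the ends of a list; genes of the lists named for their level in a class were chosen after their values were seen. Gates, in UMIs: lymphoid 3 (C1q under 20), Xcr1 and Clec9a 3, Ccr7 3 with Fscn1 2, Cd209a 3, Ctsk 5 with Acp5 10, Ly6c2 4 (Klrb1c and Gzma under 3), C1q 20, proliferation 5, Vcam1 and Dnase1l3 4; macrophage subsets gated on further markers are not reported here. Mmp9 and Plac8 entered only the marker scores. No doublet caller was run; 82 cells met more than 1 exclusive gate and 11 barcodes occurred in both libraries. In the rule of 2-fold between classes, a level under 3 UMIs was set to 3. UMIs were summed per class and library (Python 3.11.15, NumPy 2.4.6, SciPy 1.17.1), the steps were tested on simulated data, and the study's test over cells was not used, since cells are not replicates. Thinning used seed 1 and left out 0 cells.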

Additional observations from a re-analysis of the deposited data

Results flagged for a closer look

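Members whose log2 ratio (NAM over untreated) had an interval above 0 in one class and below 0 in another are given here; the differences between classes were not tested. Klf4 was higher in Ly6c2 monocytes (1.01) and lower in Xcr1 Clec9a dendritic cells (-0.52, upper bound -0.00), a difference of 1.52. Cebpb was higher in Cd209a dendritic cells (0.32) and lower in mature dendritic cells (-1.83), a difference of 2.15, the latter from 74 and 20 UMIs. Spi1 was higher in proliferating macrophages (0.15) and lower in Ly6c2 monocytes (-0.18), a difference of 0.33, with both ratios within 1.5-fold.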

How the results depend on the processing

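No paired analysis was possible because each group held 1 library, and no replicate could be left out. The median log2 ratio of the 9 members ranged from -0.0044 to 0.09 in macrophages and from -0.14 to 0.10 in Ly6c2 monocytes over 13 alternatives. Maf in macrophages ranged from -0.73 to -0.63 and kept its call in 12 of 13, losing it with 2-fold for a call. With 2-fold for a call, 34 genes were higher (151 at 1.5-fold) and 143 lower (496) in macrophages, and 32 higher (157) and 110 lower (298) in monocytes; thinned to 3000 UMIs, 170 were lower in monocytes. With 2-fold for a call 7 of 10 ratio calls were lost, and with cells thinned 3 of 9. With the class of highest marker score, which placed 177 and 180 cells among mature dendritic cells, 5 of 9 ratio calls and 14 of 22 level calls were lost over all classes, Klf4 in monocytes was 0.50, Batf3 in the Vcam1 Dnase1l3 subset 0.36, Cebpa in osteoclast-like cells -0.30 and Cebpb in mature dendritic cells -0.13. Under it Nfatc1 against macrophages turned from -1.54 to 0.30 in Xcr1 Clec9a dendritic cells and Batf3 from 1.84 to -0.078 in mature dendritic cells, the latter to -0.92 without the 5 cells richest in it; the cause was not tested. In mature dendritic cells without those of another gate, Lyz2 turned from 1.55 to -0.69 and Cd14 from 0.83 to -0.063. Median-of-ratios scaling moved the median of all genes by -0.12 in Xcr1 Clec9a dendritic cells. Leaving out cells with a barcode in both libraries, or with 10 or more hemoglobin UMIs, both chosen after seeing the data, changed no call.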
